A study of Mus musculus with 50 samples.

Results

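The nuclear-encoded genes of oxidative phosphorylation were followed across 5 populations of a mouse colon epithelial cell line. Members were taken from gene symbols alone: every gene whose symbol begins with Nduf, Uqcr, Cox4i, Cox5, Cox6, Cox7, Cox8 or Atp5, or is Sdha, Sdhb, Sdhc or Sdhd, leaving out pseudogenes. The rule found 90 of the 18193 genes with a probe set of their own on the array. They comprise 36 subunits of complex I, 8 genes named as assembly factors of complex I (Ndufaf), 4 subunits of complex II, 8 of complex III, 17 of complex IV and 17 of complex V. Of the 90, 86 were bright enough to be tested, with 35, 8, 4, 8, 14 and 17 in these classes. Cox7c and Ndufb4, which encode subunits of complexes IV and I, and Cox7b2 exceeded the median of the whole table on 0 of the 50 arrays, and Cox8b, the heart and muscle form of a complex IV subunit, on 7. Another 10 probe sets carried a member's symbol together with other symbols and were left out.

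The cells were young adult mouse colon (YAMC) cells from the H-2Kb/tsA58 mouse, in which an interferon gamma inducible promoter drives a temperature-sensitive SV40 large T antigen. All 5 populations carry this transgene. The parental YAMC cells were compared with 4 polyclonal populations made from them by retroviral infection: bleo/Neo, which received the empty vectors; mp53, with p53175H and the Neo vector; Ras, with the Bleo vector and RasV12; and mp53/Ras, with p53175H and RasV12. RNA was taken after 48 h at 39 °C without interferon gamma, where large T is inactive, and then 24 h in 0% serum, from sub-confluent, cycling cells. Polysomal RNA, the mRNA recovered with several ribosomes attached, was isolated on sucrose gradients and 5 µg was hybridised per array, with 10 arrays in each group. Such intensities combine transcript abundance with ribosome loading. The labels number the replicates without saying whether they were separate cultures, so p-values measure only the spread between these samples, which may be technical. Each population was derived once, and an effect of an oncogene cannot be told apart from a difference between derivations.

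Oxidative phosphorylation makes most of the ATP of a resting epithelial cell. Complexes I and II pass electrons from NADH and succinate to ubiquinone, complex III passes them on to cytochrome c and complex IV to oxygen. Complexes I, III and IV pump protons across the inner mitochondrial membrane, and complex V, the ATP synthase, lets them back to make ATP. Complex II is also an enzyme of the tricarboxylic acid cycle. The complexes other than II mix nuclear-encoded subunits, which are translated in the cytosol and imported, with subunits encoded by mitochondrial DNA and made on mitochondrial ribosomes. Assembly factors help to build a complex without staying in it. Several complex IV subunits exist as alternative forms used in muscle, testis, lung or low oxygen. In the colon, epithelial cells near the lumen also burn butyrate through this pathway. The mitochondrially encoded subunits were not analysed here.

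Levels are log2 intensities, in which 1 unit is a doubling, and differences between groups are given with the standard error of the fit (±; n = 10 arrays a group). A gene is said to have changed where its adjusted p was below 0.05 in limma after Benjamini-Hochberg adjustment over all 12883 genes tested. Arrays give no read depth, and their number limits the precision. Levels of different genes are not compared, because probe sets differ in their response. Of the tested members, 41 averaged above 12 on a table whose highest value was 14.26. Their group means spanned a median of 0.26, against 0.44 for the other 45, and whether the range of the array narrowed differences among the brightest was not tested. For 47 members other probe sets were bright too. In 114 of 129 calls of such members all the other probe sets had the same sign.

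By their genes outside the members, 46 of the 50 arrays were nearest to the mean profile of their own group. The exceptions were the arrays labelled YAMC 2 and Ras 10, nearest to mp53, mp53 8, nearest to YAMC, and mp53 10, nearest to Ras. Arrays YAMC 2, mp53 5 and mp53 8 also lay far from their group's mean, with a spread over genes of more than double the usual one. Results that depend on these arrays are given with and without them. Of the 11 markers of colon epithelium, 5 to 7 exceeded the table's median of 6.44 in each group. Krt8 and Krt18, keratins of simple epithelia, were bright. Krt19 (8.44 to 11.54), Epcam (8.07 to 8.41) and Cldn3 (7.18 to 7.40) were above the median in every group, whereas Cdh1, Vil1 and Cdx1 stayed below it in every group. Acta2, Col1a1 and Col3a1, markers of fibroblasts and smooth muscle, were also bright, and 6 to 8 of that list's 12 markers exceeded the table's median in each group. Endothelial Pecam1, Cdh5 and Vwf and the leukocyte genes Ptprc, Itgam and Adgre1 were below it throughout, whereas endothelial Kdr (7.08 to 7.99) and the immune genes Cd68 (8.41 to 9.96) and Cd3e (7.13 to 7.42) were above it in every group. Of 6 squamous and neural markers 5 or 6 exceeded the median in each group, among them Sox10 (7.45 to 7.57), and of 6 striated muscle markers 1 or 2. A level above the median therefore does not by itself assign a cell type.

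Most members differed little between populations. The means of the 5 groups spanned a median of 0.31 per member, against 0.41 over all genes tested. Only 2 members, Cox6b2 and Ndufa4l2, spanned at least 1, which is a smaller share than the 10.8% of all genes. In 68 of 86 the span was below 0.5. Of the 86, 71 changed in at least 1 of the 10 pairwise comparisons and 15 in none. The matching share of all genes was not counted, but in mp53/Ras against bleo/Neo alone 26.7% of all genes rose and 27.9% fell. The mp53/Ras mean was the highest of the 5 in 33 members and the bleo/Neo mean in 26, whereas the YAMC mean was the lowest in 38. The heat map of group means shows both columns of higher values, in mp53/Ras mainly among complex V, complex III and the assembly factors, and in bleo/Neo mainly in complex I. Relative to each member's mean over all arrays, the median over members was -0.45 on array YAMC 5 and -0.22 on YAMC 2. On the other YAMC arrays it lay between -0.12 and 0.09. How often the YAMC mean would be the lowest without YAMC 5 and YAMC 2 was not counted.

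**Figure D1:**
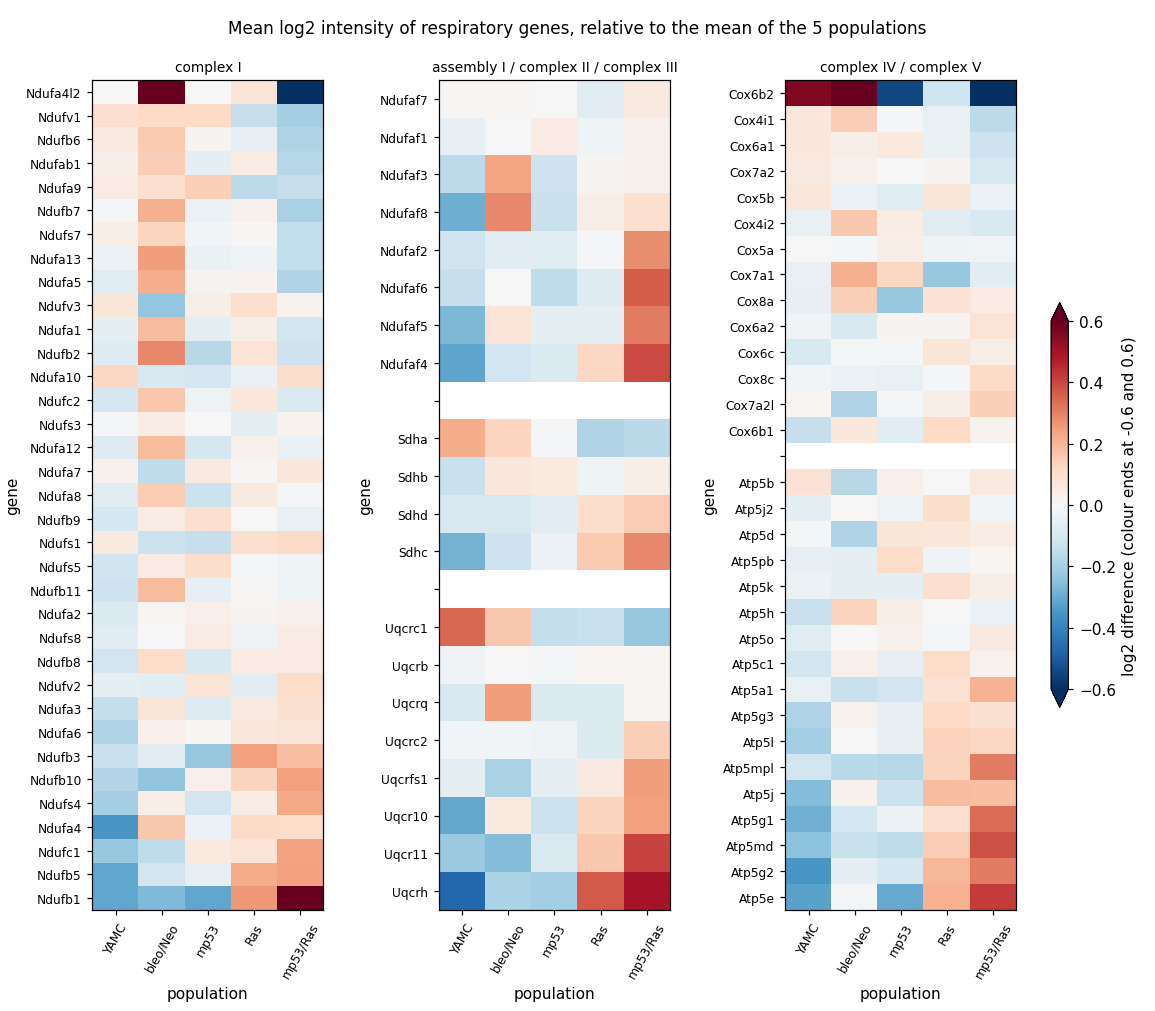
Each row is a tested member and each column a population, grouped by complex, and the colour gives the mean log2 intensity of 10 arrays relative to the mean of the 5 populations. Cox6b2 and Ndufa4l2 had the widest spans, and the YAMC mean was the lowest of the 5 in 38 of 86 members.

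Cox6b2, the testis form of a complex IV subunit on the intermembrane side of the complex, had the largest difference of any member in every comparison of an oncogene-bearing population with bleo/Neo. Its log2 intensity on the YAMC arrays ranged from 7.61 to 9.39 with a median of 8.82, and in bleo/Neo from 8.42 to 9.99 with a median of 8.97. The mp53 arrays ran from 7.30 to 7.87 (median 7.54), the Ras arrays from 7.78 to 8.46 (median 7.93) and the mp53/Ras arrays from 7.09 to 7.43 (median 7.19). All mp53 and mp53/Ras arrays were thus below all bleo/Neo arrays, and all mp53/Ras arrays were also below all YAMC and all Ras arrays. Against bleo/Neo it fell by 1.53 ± 0.17 with mp53 alone (adjusted p = 1.35e-10), by 1.10 ± 0.17 with Ras alone (3.37e-07) and by 1.87 ± 0.17 with both (9.52e-14). Against YAMC the mp53 population differed by -1.11, that with Ras by -0.68 and that with both by -1.44, each ± 0.17 and each past the test. The ubiquitous form of the same subunit, Cox6b1, averaged 12.44 on YAMC arrays and 12.64 on bleo/Neo arrays, and 12.51, 12.70 and 12.60 on those of mp53, Ras and mp53/Ras. It changed in 1 of these comparisons, rising by 0.26 ± 0.09 in Ras against YAMC (adjusted p = 0.0127).

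Ndufa4l2, a relative of Ndufa4 known to be induced in low oxygen, ranged from 7.24 to 8.99 in YAMC (median 7.79), from 7.89 to 9.84 in bleo/Neo (median 8.39), from 7.57 to 8.10 in mp53 (median 7.92) and from 7.65 to 8.26 in Ras (median 8.02). In mp53/Ras it ranged from 6.96 to 7.50 (median 7.19). The mp53/Ras arrays lay below every bleo/Neo, mp53 and Ras array, and overlapped those of YAMC. It was the only member for which mp53/Ras passed the test as lower against each of the other 4 groups, with differences of -1.29 ± 0.15 from bleo/Neo (adjusted p = 5.24e-10), -0.69 ± 0.15 from YAMC (0.000175), -0.69 ± 0.15 from mp53 (0.000257) and -0.76 ± 0.15 from Ras (0.000184). How many of all genes did so was not counted. Ndufa4 itself, a subunit of complex IV that is counted here with complex I by its name, was higher than in YAMC by 0.46 ± 0.12 in mp53/Ras, where Ndufa4l2 was lower. Ndufa4 also rose by 0.47 ± 0.12 in Ras and by 0.51 ± 0.12 in bleo/Neo, where Ndufa4l2 differed from YAMC by 0.08 ± 0.15 and 0.61 ± 0.15. On the lowest YAMC array Ndufa4 was at 11.11 and on the lowest mp53 array at 11.32, whereas all Ras and mp53/Ras arrays lay between 12.11 and 12.56.

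The other alternative forms moved less. Cox4i2, the form of subunit 4 used in lung and induced in low oxygen, sat close to the table's median, between 6.16 and 6.94 over all arrays. It rose by 0.21 ± 0.06 in bleo/Neo against YAMC and was lower than bleo/Neo in Ras (-0.23 ± 0.06) and in mp53/Ras (-0.25 ± 0.06). The common form, Cox4i1, fell by 0.30 ± 0.05 in mp53/Ras against bleo/Neo, where the groups did not overlap, and by 0.22 ± 0.05 against YAMC. Cox7a1, the heart and muscle form, differed by -0.44 ± 0.09 between Ras and bleo/Neo, and ranged from 5.91 to 7.09 over all arrays. Its partner Cox7a2 averaged between 13.38 and 13.53 in every group. In mp53/Ras it passed the test as lower, by -0.12 ± 0.05 against bleo/Neo and -0.15 against YAMC. Both calls ended after a renewed quantile normalization and when all its bright probe sets were averaged. Cox7a2l, which helps to join complexes III and IV, rose by 0.32 ± 0.07 in mp53/Ras against bleo/Neo, and its 2 other bright probe sets gave 0.39 and 0.41. Cox6a1, the common form of subunit 6a, averaged 13.48 in mp53/Ras and differed by -0.19 ± 0.04 from YAMC and -0.16 ± 0.04 from bleo/Neo, though its other bright probe set gave -0.08 and -0.01. Cox6a2, the muscle form, and Cox8c, the testis form of subunit 8, changed in none of the 10 pairs, with means between 7.47 and 7.63 and between 8.04 and 8.20. The strip plots of both pairs of forms show the wide spread of Cox6b2 and Ndufa4l2 on the control arrays and their narrow range in mp53/Ras.

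**Figure D2:**
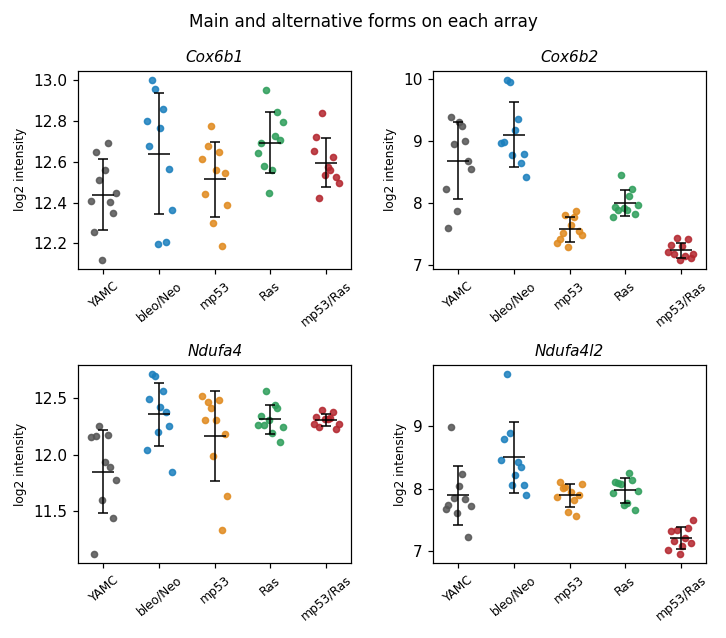
Log2 intensity (vertical axis) of Cox6b1, Cox6b2, Ndufa4 and Ndufa4l2 by population, with a point for each of the 10 arrays, a line at the mean and whiskers of 1 SD. For Cox6b2 and Ndufa4l2 the mp53/Ras arrays lay between 7.09 and 7.43 and between 6.96 and 7.50, and the bleo/Neo arrays between 8.42 and 9.99 and between 7.89 and 9.84.

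The sequences upstream of 5 members are shown because of their differences between mp53/Ras and YAMC: Cox6b2 for the largest fall in complex IV, Ndufb1 for the largest rise in complex I, Uqcrh and Uqcrc1 for the largest rise and fall in complex III, and Ndufaf4 for the largest rise among the assembly factors. Each is the sense strand from 250 bases before to 50 bases after the gene's start, from RefSeq on GRCm38.p6. Capitals mark matches on either strand to 3 motifs: the palindromic site of nuclear respiratory factor NRF1, whose 10 letters stand in capitals in the windows of Uqcrc1 and Ndufaf4; CCGGAAG, the core of ETS factors, to which the respiratory factor GABP (NRF2) belongs; and ACGTG, the core of the hypoxia response element. The motifs were found in 6, 19 and 19 of the 74 members with such a window, or 8.11%, 25.7% and 25.7%, and in 1.07%, 9.93% and 21.8% of all 27025 genes with a window. A match is a description of the letters, not of binding.
The windows are chr7:4753045-4753344 on the minus strand for Cox6b2, chr12:101975689-101975988 on the minus strand for Ndufb1, chr4:116075021-116075320 on the minus strand for Uqcrh, chr9:108936398-108936697 on the plus strand for Uqcrc1 and chr4:24897833-24898132 on the plus strand for Ndufaf4.
Cox6b2: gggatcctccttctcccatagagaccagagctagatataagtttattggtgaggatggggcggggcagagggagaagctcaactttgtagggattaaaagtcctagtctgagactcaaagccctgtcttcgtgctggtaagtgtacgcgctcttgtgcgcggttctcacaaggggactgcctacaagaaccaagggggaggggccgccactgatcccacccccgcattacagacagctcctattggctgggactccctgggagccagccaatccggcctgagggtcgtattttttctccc
Ndufb1: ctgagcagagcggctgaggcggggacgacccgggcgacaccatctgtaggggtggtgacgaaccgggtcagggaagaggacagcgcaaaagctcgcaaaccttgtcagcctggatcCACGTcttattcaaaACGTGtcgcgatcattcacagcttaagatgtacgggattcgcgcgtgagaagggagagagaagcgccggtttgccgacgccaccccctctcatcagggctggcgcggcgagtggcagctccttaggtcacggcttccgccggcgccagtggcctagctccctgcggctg
Uqcrh: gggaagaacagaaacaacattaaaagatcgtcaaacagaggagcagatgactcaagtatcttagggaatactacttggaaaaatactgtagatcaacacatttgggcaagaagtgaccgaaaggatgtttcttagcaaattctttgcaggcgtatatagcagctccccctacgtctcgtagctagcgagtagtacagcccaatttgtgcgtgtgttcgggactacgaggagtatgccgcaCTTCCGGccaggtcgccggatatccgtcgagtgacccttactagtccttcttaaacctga
Uqcrc1: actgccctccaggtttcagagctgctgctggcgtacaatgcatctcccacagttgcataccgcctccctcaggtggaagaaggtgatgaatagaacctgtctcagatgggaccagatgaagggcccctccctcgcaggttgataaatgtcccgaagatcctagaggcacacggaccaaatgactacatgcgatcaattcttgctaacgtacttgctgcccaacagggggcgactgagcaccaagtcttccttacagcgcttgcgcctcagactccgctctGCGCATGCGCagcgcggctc
Ndufaf4: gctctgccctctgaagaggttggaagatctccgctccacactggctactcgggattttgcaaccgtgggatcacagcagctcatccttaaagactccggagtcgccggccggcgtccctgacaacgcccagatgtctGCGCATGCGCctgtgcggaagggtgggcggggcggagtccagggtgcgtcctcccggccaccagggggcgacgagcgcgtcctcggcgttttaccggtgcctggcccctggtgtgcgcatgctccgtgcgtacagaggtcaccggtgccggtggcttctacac
The window of Cox6b2 held none of the 3 motifs. That of Ndufb1 held ACGTG at 2 places on opposite strands, that of Uqcrh held 1 ETS core, and those of Uqcrc1 and Ndufaf4 each held 1 NRF1 site.

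The double-oncogene cells were compared with both controls, since these differ from each other. Against YAMC, 33 members rose and 12 fell in mp53/Ras, beside 29.1% and 28.7% of all genes tested. Complex V, complex III and the assembly factors of complex I lay on the side of the rises. In complex V 11 of 17 rose and 0 fell (median difference 0.25), in complex III 4 of 8 rose and 1 fell (0.23), among assembly factors 6 of 8 rose and 0 fell (0.40), and in complex II 3 of 4 rose and 1 fell. In complex I 9 of 35 rose, among them the complex IV subunit Ndufa4 that is counted there by its name, and 6 fell. In complex IV as classed here 0 of 14 rose and 4 fell. Over all members the median difference was 0.10, and over all genes 0.02. Against bleo/Neo 26 members rose and 23 fell, beside 26.7% and 27.9% of all genes tested, with a median of 0.03. There 9 rose and 14 fell in complex I, 1 rose and 6 fell in complex IV, and 7 rose and 1 fell in complex V. In all, 20 members were higher in mp53/Ras than in both controls (18.0% of all genes) and 11 were lower than in both (19.5%), while Ndufaf3 was higher than in YAMC and lower than in bleo/Neo. All 10 mp53/Ras arrays lay above all 10 YAMC arrays in 8 members and below them in 2, beside 7.13% and 8.97% of all genes. Against bleo/Neo this held for 3 and 7 members, beside 6.99% and 10.4%.

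**Figure D3:**
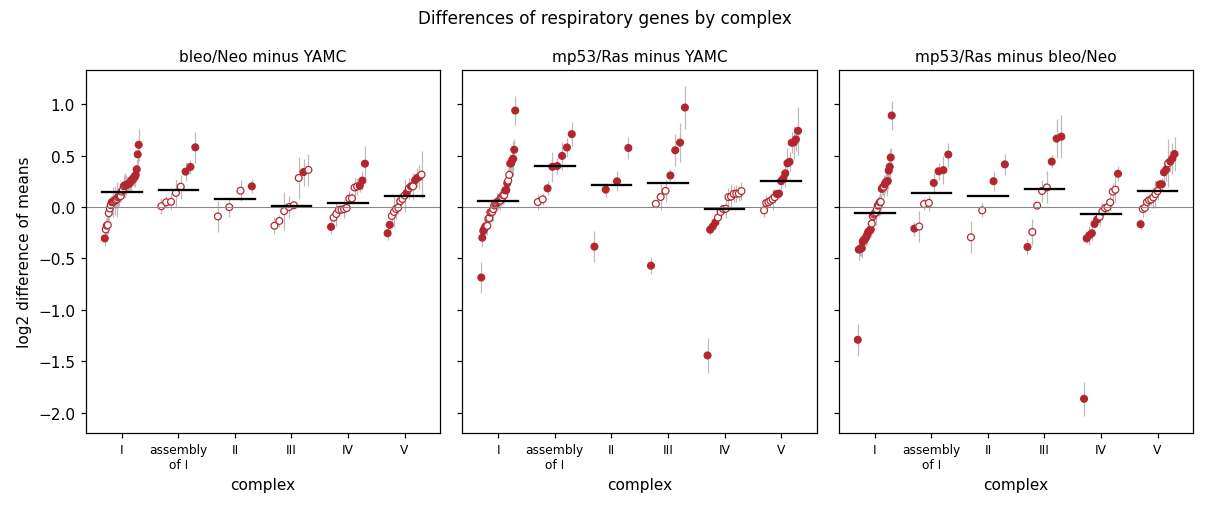
Each point is a member, placed by complex on the horizontal axis and by its log2 difference of group means on the vertical axis, in a panel for each comparison, filled where it passed the test, with whiskers of 1 standard error and a black bar at the median of its class. In mp53/Ras against YAMC 11 of 17 complex V members rose and 0 fell, whereas against bleo/Neo complex I had 14 falls beside 9 rises.

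Within complex I, Ndufb1, a small accessory subunit of the membrane arm, rose most. Its log2 intensity ranged from 6.97 to 7.84 in YAMC (median 7.56), from 7.0 to 8.46 in bleo/Neo (7.48), from 6.79 to 7.83 in mp53 (7.59), from 7.76 to 8.56 in Ras (7.94) and from 8.05 to 8.92 in mp53/Ras (8.40). Every mp53/Ras array was above every YAMC and mp53 array. The difference was 0.94 ± 0.14 from YAMC (adjusted p = 2.09e-07), 0.89 ± 0.14 from bleo/Neo (5.71e-07) and 0.94 ± 0.14 from mp53 (3.41e-07). Other accessory subunits of the membrane arm rose against both controls. Ndufb5 rose by 0.56 ± 0.11 against YAMC and by 0.35 ± 0.11 against bleo/Neo, and Ndufb10 by 0.42 ± 0.09 and 0.48 ± 0.09. Ndufs4, an accessory subunit needed for full assembly of the NADH-binding module, rose by 0.43 ± 0.08 and 0.19 ± 0.08. Ndufv1, the NADH-binding core subunit of that module, moved the other way, with differences of -0.30 ± 0.09 and -0.32 ± 0.09. Ndufb6, Ndufb7, Ndufa9 and Ndufab1, the mitochondrial acyl carrier protein, were also lower in mp53/Ras than in both controls, by differences between -0.19 and -0.41. The 2 other bright probe sets of Ndufab1 gave -0.27 and 0.14 against YAMC, and -0.41 and -0.065 against bleo/Neo. Those of Ndufs4 gave 0.44 and 0.64 against YAMC, but only 0.01 and 0.08 against bleo/Neo. The other bright probe set of Ndufb7 gave only -0.04 against YAMC, and -0.33 against bleo/Neo.

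Of the 8 assembly factors of complex I, 6 rose in mp53/Ras against YAMC and 4 rose and 1 fell against bleo/Neo. Ndufaf4 ranged from 8.32 to 9.31 in YAMC (median 8.72), from 8.56 to 9.83 in bleo/Neo (8.74), from 8.57 to 9.12 in mp53 (8.98), from 8.76 to 9.50 in Ras (9.24) and from 9.05 to 9.65 in mp53/Ras (9.44). It rose by 0.71 ± 0.12 against YAMC and by 0.51 ± 0.12 against bleo/Neo, with overlap in both. Ndufaf5, an enzyme that hydroxylates the subunit Ndufs7, ranged from 7.75 to 8.58 in YAMC (median 8.19), from 8.27 to 8.88 in bleo/Neo (8.50), from 7.97 to 8.79 in mp53 (8.39), from 8.19 to 8.81 in Ras (8.37) and from 8.61 to 9.03 in mp53/Ras (8.77), so that mp53/Ras and YAMC did not overlap. Its difference was 0.58 ± 0.09 from YAMC and 0.37 ± 0.09 from Ras. Ndufaf2, Ndufaf5 and Ndufaf6 each passed the test as higher in mp53/Ras than in all 4 other groups, and the only other member of which this held was Uqcrfs1. The share of all genes with this pattern was not counted. Ndufaf2 exceeded Ras by 0.29 ± 0.08 and Ndufaf6 exceeded it by 0.44 ± 0.13. Ndufaf1 and Ndufaf7 differed from YAMC by 0.08 ± 0.06 and 0.05 ± 0.08 and did not pass the test.

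In complex III the hinge subunit and the core protein moved apart. Uqcrh, the hinge protein at the cytochrome c1 side, ranged from 9.52 to 11.34 in YAMC (median 10.92), from 10.37 to 11.78 in bleo/Neo (10.95), from 9.76 to 11.65 in mp53 (11.22), from 11.20 to 12.20 in Ras (11.49) and from 11.47 to 12.14 in mp53/Ras (11.62). Its difference in mp53/Ras was 0.97 ± 0.21 from YAMC, without overlap, and 0.69 ± 0.21 from bleo/Neo. The other bright probe set of Uqcrh gave 1.18 and 0.82. Uqcrfs1, the Rieske iron-sulfur protein that carries electrons to cytochrome c1, ranged from 10.98 to 11.54 in YAMC (median 11.37), from 11.05 to 11.38 in bleo/Neo (11.21), from 11.09 to 11.46 in mp53 (11.36), from 11.18 to 11.64 in Ras (11.47) and from 11.51 to 11.80 in mp53/Ras (11.66). The mp53/Ras arrays lay above all those of bleo/Neo and mp53, with differences of 0.44 ± 0.06 and 0.31 ± 0.06. Uqcrc1, the large core protein, ranged from 11.90 to 12.36 in YAMC (median 12.05) and from 11.51 to 12.37 in bleo/Neo (11.96). In mp53, Ras and mp53/Ras its medians were 11.63, 11.69 and 11.57, and no array of these 3 groups reached the lowest YAMC array, the highest being 11.89. Against YAMC it differed by -0.49 ± 0.08, -0.48 ± 0.08 and -0.57 ± 0.08 in these groups, and against bleo/Neo by -0.30, -0.30 and -0.39. Uqcr11, a small subunit, was higher in mp53/Ras by 0.63 ± 0.19 than in YAMC and by 0.67 ± 0.19 than in bleo/Neo, with overlap in both. Uqcr10, another small subunit, had 0.55 ± 0.16 in mp53/Ras against YAMC, but its other bright probe set gave -0.15.

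In complex V the largest rise in mp53/Ras against YAMC was that of Atp5e, subunit epsilon of the central stalk, at 0.74 ± 0.23 (adjusted p = 0.00558). Its arrays varied widely, from 8.82 to 10.76 in YAMC (median 9.87), from 9.2 to 11.46 in bleo/Neo (10.08), from 8.61 to 10.34 in mp53 (10.02), from 10.01 to 11.29 in Ras (10.14) and from 9.99 to 11.20 in mp53/Ras (10.47). The groups overlapped, and the difference was 0.72 ± 0.23 from mp53 and, without passing the test, 0.43 ± 0.23 from bleo/Neo. The call against mp53 ended without mp53 8, mp53 10, Ras 10 and YAMC 2 (0.51, adjusted p = 0.0568). It also ended without the arrays of widest spread (0.50, adjusted p = 0.0604). The subunit c genes followed. Atp5g1, Atp5g2 and Atp5g3 encode the same mature subunit c, which forms the rotating ring. Atp5g1 ranged from 10.89 to 11.65 in YAMC (median 11.43), from 11.27 to 12.07 in bleo/Neo (11.56), from 10.63 to 11.91 in mp53 (11.81), from 11.69 to 11.92 in Ras (11.79) and from 11.84 to 12.18 in mp53/Ras (12.05). The YAMC arrays lay below all Ras and all mp53/Ras arrays. In mp53/Ras against YAMC Atp5g1 rose by 0.63 ± 0.10, Atp5g2 by 0.66 ± 0.11 and Atp5g3 by 0.28 ± 0.06, all without overlap. Against bleo/Neo the first of them rose by 0.44 ± 0.10 and the second by 0.36 ± 0.11, and the third did not pass the test. Atp5md and Atp5mpl, small subunits of the membrane part, rose against both controls, by 0.63 ± 0.16 and 0.43 ± 0.15 against YAMC. In the catalytic head Atp5a1, subunit alpha, rose by 0.25 ± 0.10 and 0.34 ± 0.10 against YAMC and bleo/Neo. Atp5b, subunit beta of the head, and Atp5d, subunit delta of the central stalk, passed the test against bleo/Neo but not against YAMC. They rose against bleo/Neo by 0.22 ± 0.06 and 0.22 ± 0.04, and both were lower in bleo/Neo than in every other group. The other bright probe set of Atp5d gave 0.49 against bleo/Neo and 0.33 against YAMC.

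**Figure D4:**
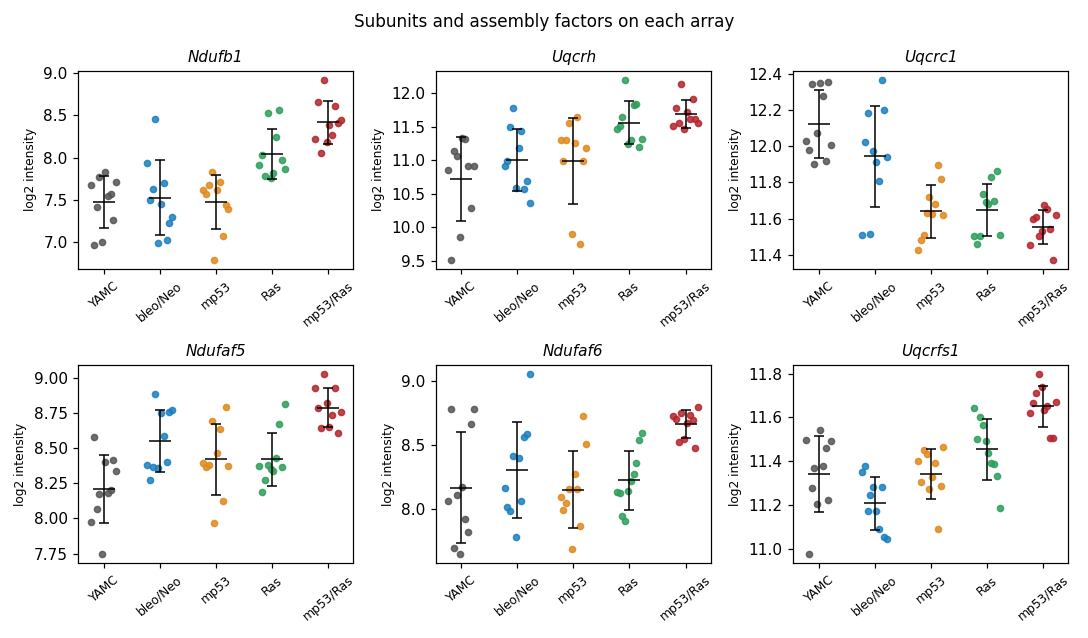
Log2 intensity (vertical axis) of Ndufb1, Uqcrh, Uqcrc1, Ndufaf5, Ndufaf6 and Uqcrfs1 by population, with a point for each of the 10 arrays, a line at the mean and whiskers of 1 SD. No Uqcrc1 array of the 3 oncogene-bearing populations exceeded 11.89 while the YAMC arrays began at 11.90, and the mp53/Ras arrays of Ndufb1 began at 8.05, above the highest YAMC array at 7.84.

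The 4 subunits of succinate dehydrogenase moved by different amounts, and Sdha in the other direction. Sdhc, which anchors the enzyme in the membrane, ranged from 10.18 to 11.27 in YAMC (median 10.92), from 10.62 to 11.36 in bleo/Neo (10.99), from 10.35 to 11.32 in mp53 (11.18), from 10.82 to 11.51 in Ras (11.36) and from 11.16 to 11.62 in mp53/Ras (11.45). The groups overlapped, and in mp53/Ras Sdhc rose by 0.58 ± 0.10 against YAMC and 0.42 ± 0.10 against bleo/Neo. Sdhd, the other anchor, rose by 0.25 ± 0.10 against each control. Its call against YAMC ended without array YAMC 2 or YAMC 10 (adjusted p = 0.0533 to 0.103), and that against bleo/Neo without bleo/Neo 1 or 10 (0.0529 to 0.0557). Sdha, the flavoprotein that oxidises succinate, fell by 0.38 ± 0.15 in mp53/Ras and by 0.40 ± 0.15 in Ras against YAMC. Both calls ended without array YAMC 2 or YAMC 9, the first also without mp53/Ras 4 and the second without Ras 3 or Ras 5 (adjusted p = 0.0633 to 0.0815 and 0.057 to 0.083). Sdhb, the iron-sulfur subunit, rose by 0.17 ± 0.07 in mp53/Ras against YAMC, a call that ended without YAMC 1, 4 or 5 or mp53/Ras 2 (adjusted p = 0.0518 to 0.079), and did not pass the test against bleo/Neo (-0.03 ± 0.07). It was 0.20 ± 0.07 higher in bleo/Neo than in YAMC.

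The empty-vector cells differed from the parental cells in 30 members, of which 26 rose and 4 fell, beside 20% and 17.4% of all genes tested. The median over the members was 0.11, and over all genes 0.015. Complex I held 13 of the rises and 1 of the falls. Ndufaf3, an assembly factor, ranged from 8.99 to 9.48 in YAMC and from 9.49 to 9.85 in bleo/Neo, with medians of 9.27 and 9.67, and was the only member whose arrays did not overlap in this comparison, beside 4.88% of all genes. Its difference was 0.39 ± 0.07. Ndufaf8 rose by 0.58 ± 0.15, Ndufa4l2 by 0.61 ± 0.15 and Ndufb11 by 0.31 ± 0.07. Cox6b2 rose by 0.42 ± 0.17, but 9 of the 20 arrays each ended that call when left out (adjusted p = 0.0531 to 0.127): YAMC 1, 2, 5, 9 and 10 and bleo/Neo 3, 4, 6 and 7. Ndufv3, Atp5b, Cox7a2l and Atp5d fell, by 0.31, 0.25, 0.19 and 0.17. The call of Cox7a2l ended without YAMC 3, 4, 6 or 8 or bleo/Neo 5, 7 or 9 (adjusted p = 0.0518 to 0.0648). Uqcrq, a small subunit of complex III, rose by 0.34 ± 0.13, a call that ended without YAMC 2 or 5 or bleo/Neo 1, 3, 4 or 9 (0.052 to 0.0928). In 7 members, Cox6b2, Ndufa12, Ndufa13, Ndufa4l2, Ndufaf3, Ndufb11 and Ndufb7, bleo/Neo passed the test as higher than each of the other 4 groups. In Atp5b, Atp5d and Ndufv3 it passed as lower. The share of all genes with either pattern was not counted, so these members are listed without a background. The 2 other bright probe sets of Ndufa12 gave -0.02 and 0.36 in bleo/Neo against YAMC. The fibroblast and smooth muscle markers moved too: 6 of 8 tested fell and 1 rose in bleo/Neo against YAMC, with Col1a2 at -4.62 ± 0.14 and Dcn at 1.44 ± 0.19. Of 7 tested markers of colon epithelium 4 rose and 1 fell, with Krt19 at 2.21 ± 0.24. The summed log2 level of all 12 fibroblast and smooth muscle markers was 100.3 to 105.5 on bleo/Neo arrays and 110.1 to 114.5 on YAMC arrays, and that of all 11 epithelial markers 82.5 to 84.8 and 79.3 to 80.5. In mp53/Ras and Ras 7 of the 8 fibroblast and smooth muscle markers fell against YAMC, and the part of these genes in the members' differences was not tested. In such bulk samples a smaller share of cells of a type and less RNA per cell cannot be told apart.

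In Ras against YAMC 21 members rose and 6 fell, beside 21.5% and 21.2% of all genes tested, with a median difference of 0.11. Against bleo/Neo 11 rose and 16 fell, beside 19.7% and 21.4%, with a median near 0. A renewed quantile normalization turned that balance, to 16 rises and 11 falls. Complex V gave 7 rises and 0 falls against YAMC, with Atp5g2 at 0.54 ± 0.11 and Atp5j, a stalk subunit, at 0.45 ± 0.09. Ndufb1, Ndufb5, Ndufb10, Sdhc and Uqcrh were higher in Ras than in both controls (10.3% of all genes were), and Cox6b2, Ndufa9, Ndufv1 and Uqcrc1 lower (11.2%). Ndufb1 rose by 0.57 ± 0.14 against YAMC and 0.52 ± 0.14 against bleo/Neo, and Uqcrh by 0.84 ± 0.21 and 0.56 ± 0.21. The last call ended without array Ras 4 or bleo/Neo 5, 8 or 10 (adjusted p = 0.0517 to 0.0626), that of Sdhc against bleo/Neo without bleo/Neo 10 (0.0577) and that of Ndufv1 against YAMC without YAMC 2 or 9 (0.0548 to 0.0648).

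In mp53 against YAMC 5 members rose and 3 fell, beside 11.1% and 11.8% of all genes tested. Besides Cox6b2 and Uqcrc1, Cox5b, a peripheral complex IV subunit, fell by 0.14 ± 0.05, and Ndufs5, Ndufb9, Sdhb, Atp5h and Atp5o rose by between 0.10 and 0.22. The 2 other bright probe sets of Ndufb9 gave -0.22 and 0.19. A renewed quantile normalization gave 8 rises and 3 falls. The count of 8 calls rested on single arrays. It was 4 without YAMC 5, 5 without mp53 1 or without mp53 3, 15 without mp53 5 and 16 without mp53 8. Without YAMC 2, mp53 5 and mp53 8 it was 23, and without YAMC 2, mp53 8, mp53 10 and Ras 10 it was 16. Against bleo/Neo 6 members rose and 19 fell, beside 16.5% and 18.9%, and 12 of the falls were in complex I. The split was 9 and 17 after a renewed quantile normalization, and 16 and 19 with array weights. Ndufa12, Ndufa13, Ndufb7 and Ndufb11 were among the falls, at -0.29, -0.29, -0.25 and -0.24. The 2 other bright probe sets of Ndufa12 gave -0.28 and 0.13. Only Cox6b2 and Uqcrc1 were lower in mp53 than in both controls (5.58% of all genes), and 0 members were higher (4.32%).

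The double-oncogene cells were also set against each single-oncogene population, and the single-oncogene populations against each other. In mp53/Ras against mp53 25 members rose and 6 fell, beside 23.3% and 23.8% of all genes tested, with a median of 0.06. With array weights 27 rose and 19 fell. Complex V gave 8 rises and 0 falls, complex III 4 and 0, and the assembly factors 4 and 0. Uqcrh rose by 0.70 ± 0.21, Atp5md by 0.54 ± 0.16 and Ndufaf6 by 0.51 ± 0.13. Against Ras, mp53/Ras had 5 rises and 5 falls, beside 9.12% and 12.5%, and 7 and 4 after a renewed quantile normalization. The rises were Ndufaf2, Ndufaf5, Ndufaf6, Uqcrfs1 and Ndufv2, and the falls Cox6b2, Ndufa4l2, Ndufb7, Ndufab1 and Ndufc2. Between Ras and mp53, 14 members were higher in Ras and 5 lower, beside 16.7% and 16.2%, and 16 and 3 after a renewed quantile normalization. There Ndufb1 was higher by 0.57 ± 0.14 and Cox8a, the common subunit 8, by 0.32 ± 0.09, while Ndufa9 differed by -0.30 ± 0.07. The split was 15 and 18 with array weights, and the count of 19 calls was 12 without Ras 5, without Ras 8 or without mp53 5.

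A non-additive term asked whether the level in mp53/Ras departed from the sum of the mp53 and Ras differences on the log2 scale. With bleo/Neo as the control it was positive in 6 members and negative in 2, beside 11.8% and 12% of all genes tested. Among assembly factors Ndufaf6 had 0.59 ± 0.19, Ndufaf5 0.50 ± 0.13 and Ndufaf3 0.37 ± 0.10. Cox6b2 had 0.77 ± 0.24, since its single-oncogene differences of -1.53 and -1.10 add up to a larger fall than the -1.87 of mp53/Ras. Its mp53/Ras mean was 7.24, beside the table's median of 6.44, and whether a floor of its probe set limited the fall was not tested. Atp5d and Ndufv3, both lowest in bleo/Neo, had -0.28 ± 0.06 and -0.35 ± 0.10, but the call of Atp5d ended when all its bright probe sets were averaged (-0.18). With YAMC as the control 1 member was positive and 2 were negative, beside 5.42% and 7.02%: Uqcrc1 at 0.39 ± 0.11, Ndufa4l2 at -0.76 ± 0.22 and Ndufc2 at -0.22 ± 0.07. That count of 3 was 5 without YAMC 2, 6 without mp53 5 and 7 without mp53 8. No member passed with both controls.

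Other genes of mitochondrial energy metabolism were counted from lists of the pathway. In mp53/Ras 29.1% of all genes tested rose and 28.7% fell against YAMC, and 26.7% and 27.9% against bleo/Neo. Against YAMC 60 of 76 mitochondrial ribosomal proteins rose and 1 fell (median 0.38), with Mrpl42 at 1.22 ± 0.14, and against bleo/Neo 35 rose and 6 fell (0.19). Of 20 import and chaperone genes 12 rose and 2 fell against YAMC, and 11 rose and 1 fell against bleo/Neo. The rises against YAMC were led by Timm8a1 (1.17 ± 0.15), Tomm22 (1.07 ± 0.17) and Tomm40 (1.01 ± 0.14), which carry proteins through the mitochondrial membranes. The class counted with complex IV had 0 rises against YAMC, though Ndufa4, a complex IV subunit counted with complex I by its name, rose. Of 18 genes for the assembly and copper supply of complex IV 10 rose and 1 fell against YAMC, with Cox16 at 1.24 ± 0.15 and Cox20 at 0.99 ± 0.19. Against bleo/Neo only 4 of these 18 rose and 1 fell, and in bleo/Neo against YAMC 7 rose and 1 fell. Of 12 assembly genes of complexes II, III and V 9 rose and 1 fell against YAMC, but 2 rose and 1 fell against bleo/Neo. In bleo/Neo against YAMC 6 of these 12 rose and 1 fell. Of 7 other assembly genes of complex I 2 rose and 3 fell against YAMC, and 2 rose and 0 fell against bleo/Neo. Among 12 enzymes of the tricarboxylic acid cycle 5 rose and 0 fell against YAMC, and 3 rose and 0 fell against bleo/Neo. Cyc1, the cytochrome c1 of complex III, rose by 0.34 ± 0.07 against YAMC. Of 15 regulators of mitochondrial biogenesis 5 rose and 3 fell against YAMC, close to the shares of all genes, and 4 rose and 2 fell against bleo/Neo. The 3 falls against YAMC were Polrmt, the mitochondrial RNA polymerase, by 0.53 ± 0.08, Polg, the mitochondrial DNA polymerase, by 0.48 ± 0.09, and the coactivator Ppargc1b by 0.46 ± 0.14.

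Genes linked to low oxygen were counted because Ndufa4l2 and Cox4i2 belong to that response. Against bleo/Neo 9 of 12 rose in mp53/Ras and 0 fell, beside 26.7% and 27.9% of all genes, and 7 rose and 0 fell in Ras, beside 19.7% and 21.4%. In bleo/Neo itself 1 of the 12 was higher and 6 were lower than in YAMC, beside 20% and 17.4%. Bnip3, a mitochondrial outer membrane protein of mitophagy, rose by 2.97 ± 0.17 in mp53/Ras, Pdk1, the kinase that turns off pyruvate dehydrogenase, by 1.51 ± 0.16 and the glucose transporter Slc2a1 by 1.43 ± 0.13. Against YAMC 7 of the 12 rose and 1 fell in mp53/Ras, led by Egln3, an oxygen-sensing hydroxylase, at 1.79 ± 0.15. Ndufa4l2 and Cox4i2 thus fell against bleo/Neo where most of this list rose. Another pyruvate dehydrogenase kinase, Pdk2, differed by -0.86 ± 0.07 from bleo/Neo.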

How the data were processed

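The authors deposited a single table of linear intensities, 1 per probe set and array, for 50 Affymetrix arrays of polysomal RNA. RMA is named without a version in the submitters' processing notes. The arrays' medians were near-identical (86.4 to 86.7), which points to a normalization across arrays without showing its kind. No detection call, scan date or batch was among the columns. Intensities were taken to log2 without an offset. A gene was represented by the probe set of highest mean among those with 1 symbol, and tested if it exceeded the table's median (6.44) on at least 10 arrays. limma (3.58.1, R 4.3.3) fitted 1 coefficient a group over all arrays with an intensity trend, for 12 comparisons, and was tested on simulated data, where 12 of 50 genes changed by 0.25 and 38 of 50 changed by 0.5 were called for mp53/Ras against bleo/Neo. Members and lists were chosen with earlier results of these data known. Members are named if called with a difference of at least 0.5 (at most 8 a direction and comparison), if the largest called change of their complex and direction, as alternative forms or as complex II, and other members were named after their values were seen. From the other lists up to 3 called genes are named. All 90 members matched RefSeq by gene number, and 74 had a promoter window on GRCm38.p6. Alternatives changed the filter, offset, probe set rule, normalization, trend, arrays and groups in the fit, and array weights and the removal of widely spread arrays were added after the data were seen.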

Additional observations from a re-analysis of the deposited data

Results flagged for a closer look

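In 23 of the 220 sets of 10 arrays examined (44 named members in 5 groups), 1 array stood apart from the other 9 by Dixon's test. Chance gives about 1 in 20 such sets. Array mp53 8 was low for Atp5g1 (10.63), Sdhb (11.54), Sdhc (10.35), Sdhd (10.92) and Uqcrfs1 (11.09). Array mp53 5 was low for Atp5md (9.62), Cox7a2l (10.65) and Ndufv2 (11.80), and mp53 9 for Cox8c (7.71). Among the parental arrays YAMC 5 was low for Atp5g1 (10.89) and Ndufs5 (11.38), and YAMC 2 for Cox7a2 (13.11) and Sdhd (10.71). Array Ras 10 was low for Sdhc (10.82) and Sdhd (11.11) and high for Ndufs5 (12.41) and Ndufv1 (11.61), and Ras 8 was high for Atp5e (11.29) and Uqcr11 (11.41). Array mp53/Ras 4 was low for Ndufv1 (10.65). In bleo/Neo, array 3 was high for Ndufa4l2 (9.84), and array 4 for Ndufaf4 (9.83) and Uqcrq (12.84). Arrays mp53 8, YAMC 2 and Ras 10 were also nearest to another group's mean profile.

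In 8 members with bleo/Neo as the control and in 3 with YAMC, and in none with both, the non-additive term passed the test in limma: the level in mp53/Ras departed from the sum of the single-oncogene populations' differences. With bleo/Neo as the control the term was 0.77 ± 0.24 for Cox6b2 (adjusted p = 0.0135), 0.59 ± 0.19 for Ndufaf6 (0.0181), 0.50 ± 0.13 for Ndufaf5 (0.00374), 0.37 ± 0.10 for Ndufaf3 (0.00322) and 0.34 ± 0.11 for Ndufs4 (0.0158). It was -0.35 ± 0.10 for Ndufv3 (0.0117) and -0.28 ± 0.06 for Atp5d (0.000204). The call of Atp5d ended when all its bright probe sets were averaged (-0.18, adjusted p = 0.11). For Cox8a it was 0.33 ± 0.12 (0.0426), and leaving out any of 22 single arrays ended that call (0.0502 to 0.0742). With YAMC as the control it was -0.76 ± 0.22 for Ndufa4l2 (0.0138), -0.22 ± 0.07 for Ndufc2 (0.0353) and 0.39 ± 0.11 for Uqcrc1 (0.0164).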

How the results depend on the processing

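Over 12 alternative settings the named members kept direction and call in 1495 cases, lost the call in 70 and reversed in 0. Of 131 named calls, 103 held whichever single array was left out. Array weights, added after the data were seen, raised the members called to 46 for Ras against bleo/Neo (27 otherwise), 35 for mp53 against YAMC (8), 26 for mp53/Ras against Ras (10), 33 for Ras against mp53 (19), 18 for the non-additive term on bleo/Neo (8) and 14 for that on YAMC (3). Without the 3 widely spread arrays, also added later, mp53 against YAMC gave 23, mp53/Ras against Ras 17 and the non-additive term on YAMC 10. Without mp53 8, mp53 10, Ras 10 and YAMC 2 the first gave 16 and the last 5. A fit of only the groups compared, with fewer arrays, gave 2 for mp53 against YAMC and 22 for mp53/Ras against Ras. Array weights gave 16 rises and 19 falls for mp53 against bleo/Neo (6 and 19 otherwise), and removal of the 3 arrays gave 10 and 15 there and 20 and 19 for Ras against bleo/Neo (11 and 16). The causes were not tested. Leaving out 1 array at a time gave 4 to 16 for mp53 against YAMC, 12 to 20 for Ras against mp53 and 2 to 7 for the non-additive term on YAMC. The labels do not say that a shared replicate number means a shared origin, and not every same-numbered pair correlated, so the numbers were not taken as pairs. Deviations of same-numbered arrays nevertheless correlated with a median of 0.19 (-0.52 to 0.75), against -0.02 for other numbers, and 23 of 50 arrays correlated best with their own number, a hint of shared structure. With the replicate number as a block every call was kept, each of the 12 comparisons gained calls, and they moved by over 1.5 times in 3: 15 for mp53 against YAMC, 13 for the non-additive term on bleo/Neo and 7 for that on YAMC.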
